A study of Mus musculus with 48 samples.

Results

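The Argonaute family of the mouse consists of Ago1, Ago2, Ago3 and Ago4, and their mRNAs were followed here in mouse embryonic stem cells by RNA immunoprecipitation and sequencing (RIP-seq). The members were chosen by gene symbol, and all 4 had a row among the 20171 genes of the count table. Libraries came from 4 genotypes. Each was read as lysate RNA (input) and as the RNA that magnetic beads with an HA antibody recovered from the lysate (immunoprecipitate, IP). All cells were of the 129S6/SvEvTac background and carried a GFP_5xT71BS reporter and a stable FLAG-Cas9 T2A Blasticidin transgene. The untagged cells carried nothing more. HA-Tnrc6a cells had an HA-AVI tag on Tnrc6a, and the other two genotypes were HA-AVI-Tnrc6a cells that were in addition Ago2-/- or Upf1-/-. The number of clones behind a genotype and the part of each gene removed are not given in the sources used here. Triplicate dishes gave 3 libraries per genotype, fraction and set (16 groups, 48 libraries), where the 2 sets are the libraries numbered 1 to 3 and 4 to 6. The sets have the layout of the labelled experiments 3 and 4, but the match of a number to an experiment is inferred from the numbering.

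Argonaute proteins hold microRNAs and are guided by them to partly complementary sites in mRNAs. In animals they act there through GW182 proteins, of which Tnrc6a is one, and these recruit the enzymes that shorten poly(A) tails and remove caps. Ago2 is the mammalian member best known for cleaving a fully matched target. The others are known mainly for silencing through GW182. The samples thus allow 2 questions: whether other Argonaute mRNAs stand higher where Ago2 is deleted, and whether Argonaute mRNAs themselves are recovered with Tnrc6a.

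Library totals were 15383953 to 19595405 counts in the inputs and 11471544 to 18344233 in the IPs of the first set. The second set had 26458831 to 37179105 counts in the inputs and 25724085 to 73845953 in the IPs. Levels are given as CPM, counts scaled to library size with TMM factors over all 48 libraries. Tnrc6a mRNA, which checks the tag, was at 7686 CPM or more in the 18 tagged IPs and at 105 CPM or less in the 6 untagged IPs. Upf1 mRNA was not lower in the cells labelled Upf1 knockout (121.9 to 142 CPM in their inputs, 74.4 to 99.6 CPM in HA-Tnrc6a inputs), so directions given for them refer to the label. All 12 embryonic stem cell markers examined were present in the inputs, and 4 of 7 fibroblast markers were in the table, with a summed level of 20.7 to 36.8 CPM against 7208 to 8060 CPM for the stem cell markers. The 6 primitive endoderm markers had a summed level of 8.05 to 10.8 CPM with Ago2 deleted and of 37.8 to 42.5 CPM in HA-Tnrc6a inputs. That sum varied widely where Ago2 was not deleted: 14.3 to 44.9 CPM in untagged and 13.8 to 66.1 CPM in labelled Upf1 knockout inputs. For neuroectoderm markers, 4 of 5 in the table, the sums were 109.0 to 118 CPM with Ago2 deleted and 80.3 to 87.9 CPM in HA-Tnrc6a inputs. Stem cell markers summed to 7807 to 8060 CPM in Ago2 knockout inputs and to 7479 to 7567 CPM in HA-Tnrc6a inputs. The part of these differences in the results below was not tested. In lysates of many cells, fewer cells with an mRNA and less of it per cell cannot be told apart.

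Ago3, Ago1 and Ago4 are neighbours on mouse chromosome 4 (RefSeq, GRCm38.p6), while Ago2 lies alone on another chromosome. Ago3 (ENSMUSG00000028842) spans chr4:126326994-126431670, and Ago1 (ENSMUSG00000041530) follows at chr4:126435012-126468707 after 3341 bases. Ago4 (ENSMUSG00000042500) lies at chr4:126489487-126533586, a further 20779 bases on, and RefSeq lists 0 genes in either gap. Ago2 (ENSMUSG00000036698) spans chr15:73101625-73184947 and overlaps the long noncoding RNA gene Gm31725, which has 0 rows in the table. No source used here says whether counting used strand, so reads of the 2 overlapping genes cannot be told apart. Lengths in the table are 8120 bases for Ago1, 14031 for Ago2, 16571 for Ago3 and 6947 for Ago4.

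RefSeq promoter windows (GRCm38.p6, 250 bases before to 50 after a listed start) were matched for 3 of the 4 genes: Ago1, Ago3 and Ago4. Those of Ago1 and Ago3 are shown because these neighbours are read from the same strand (minus) and only Ago1 was called higher in Ago2 knockout lysates, as described further on. The responses of Ago1 and Ago3 were not tested against each other. Capitals mark the GC box motif GGGCGG or its reverse complement. Ago1 has 2 such windows, of which the outer is shown; the other, chr4:126468534-126468833, overlaps it and also holds 2 GC boxes and 1 CCAAT motif, with 75.7% G+C. The Ago1 window shown is chr4:126468582-126468881, with its start 76 bases inside the outer end of the gene, and the Ago3 window is chr4:126429493-126429792, with its start 2128 bases inside.
Ago1: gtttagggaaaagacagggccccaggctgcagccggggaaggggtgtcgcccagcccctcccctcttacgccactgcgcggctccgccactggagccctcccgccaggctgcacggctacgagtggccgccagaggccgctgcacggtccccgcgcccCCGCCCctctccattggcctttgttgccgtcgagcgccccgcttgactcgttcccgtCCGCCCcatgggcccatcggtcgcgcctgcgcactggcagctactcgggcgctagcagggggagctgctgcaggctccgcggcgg
Ago3: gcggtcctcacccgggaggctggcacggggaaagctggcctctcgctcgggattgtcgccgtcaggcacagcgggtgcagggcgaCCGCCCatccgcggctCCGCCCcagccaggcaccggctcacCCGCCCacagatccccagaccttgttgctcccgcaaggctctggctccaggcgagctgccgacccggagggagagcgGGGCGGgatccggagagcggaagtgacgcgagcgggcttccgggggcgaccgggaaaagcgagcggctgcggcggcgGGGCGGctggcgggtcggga
The Ago1 window holds 2 GC boxes and 1 CCAAT motif and the Ago3 window 5 GC boxes and 0 CCAAT motifs, with 73.0% and 74.7% G+C. Neither holds TATAAA, all motifs being searched on both strands. The Ago4 window, also on the minus strand but not shown, holds 5 GC boxes, 0 CCAAT motifs and 0 TATAAA, with 83.3% G+C. Among 32544 windows of that length, 35.9% hold GGGCGG, 37.4% CCAAT and 13.6% TATAAA, and the median G+C content is 53.0%. These matches describe the letters only and are no evidence of a bound factor.

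In lysates of Ago2 knockout cells, Ago1 mRNA was higher, Ago2 mRNA was lower, and Ago3 and Ago4 did not pass the test. HA-Tnrc6a inputs of the first set had 76.9, 80.2 and 74.3 CPM of Ago1, and those of the second set 78.0, 76.4 and 76.0 CPM. Ago2 knockout inputs had 111.8, 109.0 and 102.7 CPM, then 109.6, 107.5 and 108.0 CPM. The ranges did not overlap: each of the 6 knockout inputs lay above each of the 6 inputs of HA-Tnrc6a cells, and above each of the 6 untagged inputs (74.1 to 83.5 CPM). The fitted change of Ago1 was 1.40-fold, or 0.49 ± 0.03 on the log2 scale (SE, n = 3 per genotype and set; edgeR quasi-likelihood test, Benjamini-Hochberg adjusted p = 8.89e-18). It was 0.48 ± 0.05 in the first set and 0.50 ± 0.03 in the second. Of 19641 genes, 818 (4.16%) had a higher value.

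Ago2 mRNA fell in its own knockout but remained countable in every library. HA-Tnrc6a inputs had 205.2, 209.7 and 205.0 CPM in the first set and 323, 322 and 303 CPM in the second. The knockout inputs had 97.1, 92.8 and 93.9 CPM, then 135.6, 129.8 and 124.3 CPM. Every knockout input was lower than every input of the other genotypes, and both genotypes stood higher in the second set than in the first. The fitted level was 0.434 times that of HA-Tnrc6a cells (log2 −1.21 ± 0.03, adjusted p = 6.3e-34). Because the label names this gene, the fall is a check of the genotype.

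Ago3 and Ago4, the less abundant members, gave no called difference in these lysates. Ago2 knockout inputs held 9.63 to 14.7 CPM of Ago3 and HA-Tnrc6a inputs 11.1 to 15.8 CPM, so the ranges overlapped (log2 −0.07 ± 0.07, adjusted p = 0.499). Ago4 had only 6 to 36 counts per input library. In Ago2 knockout inputs its lowest, median and highest levels were 0.171, 0.415 and 0.749 CPM, compared with 0.367, 0.762 and 0.928 CPM for HA-Tnrc6a. Its log2 difference of −0.70 ± 0.31 had an adjusted p of 0.0845. Leaving out any 1 of 3 libraries brought it past the threshold: number 1 of the Ago2 knockout inputs (−0.90, adjusted p = 0.0443), number 6 of the same group (−0.93, 0.0318) or number 6 of the HA-Tnrc6a inputs (−0.83, 0.042). In all, 2 of the 4 Argonaute genes passed in this comparison, 1 in each direction, against 30.9% of all genes tested (15.7% higher, 15.2% lower). The lower gene is the deleted Ago2, so only Ago1 was a call beyond the check of the genotype.

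**Figure D1:**
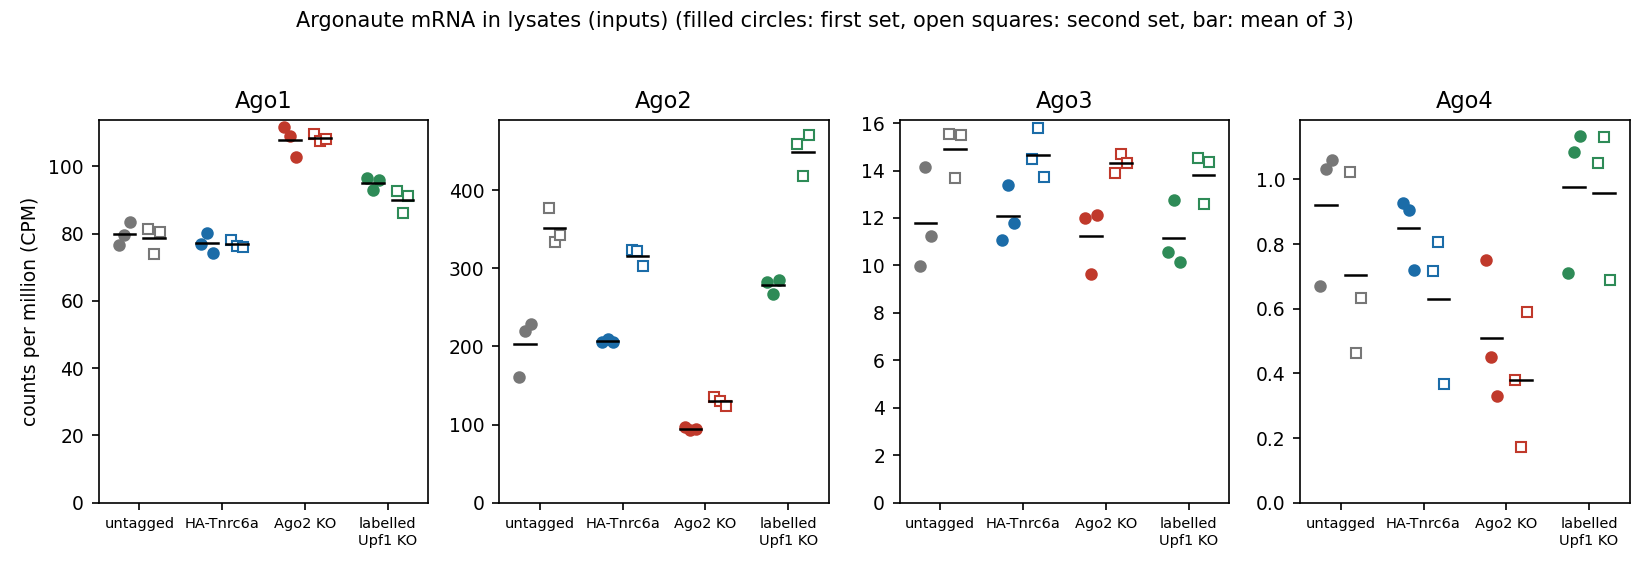
Level of each Argonaute mRNA in lysates, in CPM (linear axis from 0), by genotype. Each point is 1 library, filled circles are the first set, open squares the second, and the short bars are means of 3. Ago1 in the 6 Ago2 knockout inputs lies between 102.7 and 111.8 CPM, above every other input, and Ago2 there lies between 92.8 and 135.6 CPM, below every other input.

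Cells labelled Upf1 knockout had higher lysate levels of both Ago1 and Ago2. Ago1 was at 96.7, 93.0 and 95.9 CPM in the first set and 92.8, 86.0 and 91.1 CPM in the second, all above the 6 HA-Tnrc6a inputs and below the 6 Ago2 knockout inputs (log2 0.27 ± 0.03 against HA-Tnrc6a, adjusted p = 4.66e-11). Ago2 stood at 282, 268 and 285 CPM, then 459, 418 and 470 CPM. Within each set these values were above all 3 HA-Tnrc6a inputs, while over both sets the ranges overlapped (log2 0.47 ± 0.03, adjusted p = 2.33e-20). Ago3 (log2 −0.10 ± 0.07, adjusted p = 0.235) and Ago4 (0.40 ± 0.25, adjusted p = 0.175) did not pass. Again 2 of the 4 genes were called, both higher. This comparison called 58.6% of the 19444 genes tested (29.5% higher, 29% lower), so a called gene was common in it. The comparisons of the 3 other genotypes with HA-Tnrc6a share the HA-Tnrc6a libraries.

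Set directly against the cells labelled Upf1 knockout, Ago2 knockout lysates had more Ago1 (log2 0.22 ± 0.03, adjusted p = 6.25e-09) and less Ago2 (−1.67 ± 0.03, adjusted p = 2.22e-43). Ago4 was also lower (−1.09 ± 0.29, adjusted p = 0.00119), though not past the threshold in the first set alone (−0.89, adjusted p = 0.0769). Ago3 differed by 0.03 ± 0.07 (adjusted p = 0.718). The 3 called genes, among them the deleted Ago2, compare with 62.3% of 19419 genes tested (31.4% higher, 30.9% lower).

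Between untagged and HA-Tnrc6a lysates no Argonaute gene was called in the main fit. The number of clones is not given, so the tag and differences between clones cannot be told apart. In untagged against HA-Tnrc6a inputs, 0 of the 4 genes passed with edgeR (unadjusted p under 0.05: 0 of 4; 0 of 4 with DESeq2), while 15.4% of 19407 genes did. Log2 differences were 0.04 ± 0.04 for Ago1, 0.06 ± 0.08 for Ago2, −0.00 ± 0.08 for Ago3 and 0.14 ± 0.27 for Ago4. Ago2 was called only without number 1 of the untagged inputs, which at 161 CPM was the lowest of its group (log2 0.14, adjusted p = 5.57e-05), and in the second set alone (0.15, adjusted p = 0.00292).

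Levels of different genes were compared per kilobase of the length in the table. In HA-Tnrc6a lysates Ago2 made up 63.5% ± 5.27 of the summed Argonaute level, Ago1 33.3% ± 5.04, Ago3 2.80% ± 0.208 and Ago4 0.380% ± 0.137 (mean ± SD, n = 6). Ago2 was thus first, followed by Ago1, Ago3 and Ago4, with no overlap between neighbours in that order. In Ago2 knockout lysates the first and second places were exchanged, with Ago1 at 60.3% ± 4.01 and Ago2 at 35.9% ± 3.84. Ago3 then took 3.47% ± 0.361 and Ago4 0.292% ± 0.136. In cells labelled Upf1 knockout the order was that of HA-Tnrc6a cells (Ago2 66.9%, Ago1 30.7%). These shares describe the libraries and were not tested. The exchange of places depends on the length used: without division by length, Ago2 held 47.8% and Ago1 46.6% in Ago2 knockout inputs.

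The gain of Ago1 was smaller than the loss of Ago2 on this per-length scale. Ago1 rose by 3.78 CPM per kilobase in the first set (9.50 to 13.3) and by 3.88 in the second (9.46 to 13.3). Ago2 fell by 7.99 (14.7 to 6.74) and by 13.3 (22.5 to 9.26) CPM per kilobase. The gain of Ago1 came to 47.3% of the Ago2 mRNA lost in the first set and 29.3% in the second. These percentages depend on the lengths used and are smaller without division by length. In plain CPM, mean Ago1 went from 77.1 to 107.8 and mean Ago2 from 206.7 to 94.6 in the first set. The second set had 76.8 to 108.4 CPM for Ago1 and 315.9 to 129.9 CPM for Ago2. Reads left in the knockout count here as Ago2 mRNA, as they do in the shares and family sums. The part of the gene removed is not given, so the loss of intact Ago2 mRNA may be larger and these percentages smaller. The Ago1 gain was similar in both, and the Ago2 loss was larger in the second. The differences of Ago3 and Ago4 were each under 1% of the Ago2 loss in both sets. Summed over the family, Ago2 knockout lysates had 20.8 ± 0.701 CPM per kilobase against 25.1 ± 0.614 in HA-Tnrc6a cells in the first set (SD, n = 3 each), and 23.5 ± 0.480 against 33.0 ± 1.00 in the second. Within each set every knockout input had the lower sum. Without Ago2, the sum of the other 3 genes was 14.0 against 10.4 CPM per kilobase in the first set and 14.3 against 10.4 in the second.

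**Figure D2:**
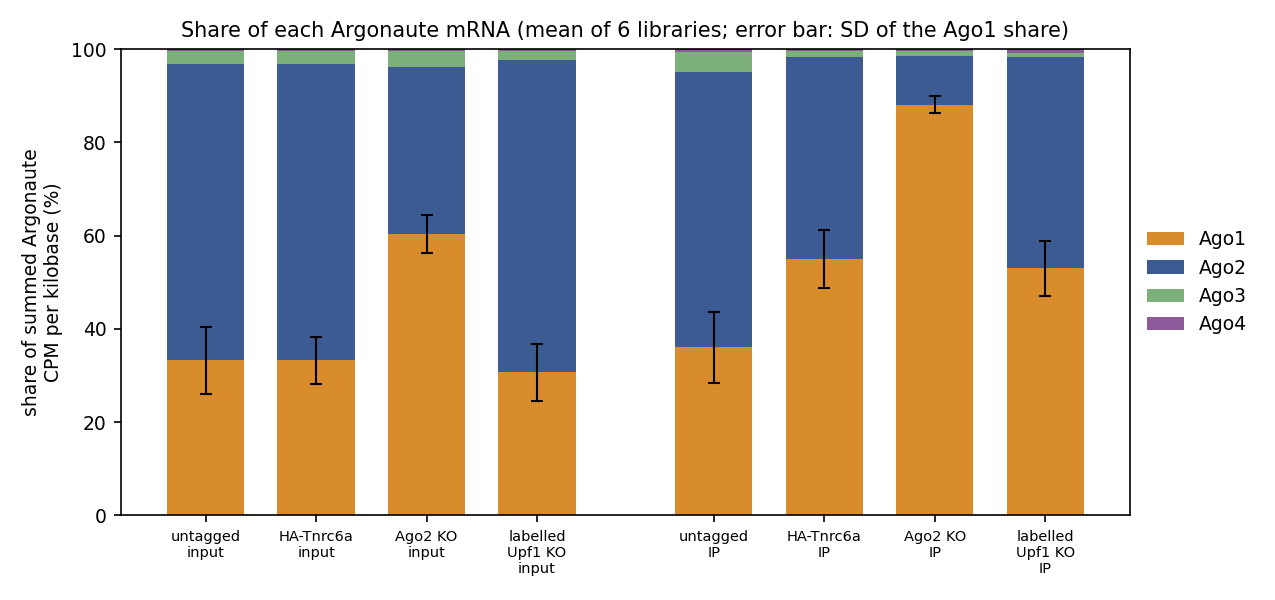
Share of each Argonaute mRNA in the summed Argonaute CPM per kilobase, in percent, by genotype for inputs (left) and IPs (right). Bars are means of 6 libraries and the error bar is the SD of the Ago1 share. The Ago1 share is 33.3% in HA-Tnrc6a and 60.3% in Ago2 knockout inputs, and 55.0% and 88.1% in the matching IPs.

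Without a tag, the beads gave Argonaute mRNAs close to their lysate level, which sets the background for the IPs. In untagged cells the log2 ratio of IP to input was −0.20 ± 0.06 for Ago1 (adjusted p = 0.00876), −0.43 ± 0.11 for Ago2 (adjusted p = 0.00956), 0.36 ± 0.08 for Ago3 (adjusted p = 0.00195) and 0.06 ± 0.31 for Ago4 (adjusted p = 0.899). Thus 2 genes were lower and 1 higher in the bead eluate, against 35.7% of 19299 genes called (18% higher, 17.8% lower). With library totals in place of TMM, the median of all genes in this comparison moved from −0.03 to −0.20 and the Ago3 value to 0.18 (adjusted p = 0.0791). In the first set alone 0 of the 4 were called.

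With the HA tag on Tnrc6a, all 4 Argonaute mRNAs were enriched over that background. In HA-Tnrc6a IPs, Ago1 stood at 902, 820 and 719 CPM in the first set and 772, 632 and 617 CPM in the second, against 56.7 to 76.9 CPM in untagged IPs. Ago2 was at 949.9, 865 and 820 CPM, then 1151, 1203 and 1074 CPM, against 103 to 294 CPM. Ago3 reached 30.3 to 43.7 CPM against 14.3 to 21.0 CPM. For Ago4 the tagged IPs held 1.87 to 5.13 CPM (45 to 66 counts) and the untagged IPs 0.460 to 1.29 CPM. For each gene, all 6 tagged IPs lay above all 6 untagged IPs.

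Enrichment, the log2 ratio of IP to input less that of untagged cells, was largest for Ago1 among the 4 genes in HA-Tnrc6a cells, at 3.47 ± 0.09 (11.1-fold, adjusted p = 1.78e-26). Ago2 followed at 2.40 ± 0.12 (5.29-fold, adjusted p = 1.65e-15) and Ago4 at 2.03 ± 0.35 (4.09-fold, adjusted p = 6.22e-06). Ago3 had the smallest value, 1.06 ± 0.12 (2.09-fold, adjusted p = 1e-09). All 4 were higher by at least 2-fold, against 16.5% of the 19993 genes tested, and 29.8% of genes were higher at any size. Ago3 stood near that limit and fell below it, while still called, in the second set alone (0.80), with library totals (0.90), and without number 2 of the untagged inputs or number 1 of the HA-Tnrc6a IPs (0.98 in both). Genes with a larger enrichment numbered 283 (1.42%) for Ago1, 948 (4.74%) for Ago2, 1345 (6.73%) for Ago4 and 3271 (16.4%) for Ago3. Differences between genes were not tested, and the Ago2 and Ago4 values lay closer together than the sum of their standard errors. Over all genes 62% were called, 32.2% of those tested being lower.

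**Figure D3:**
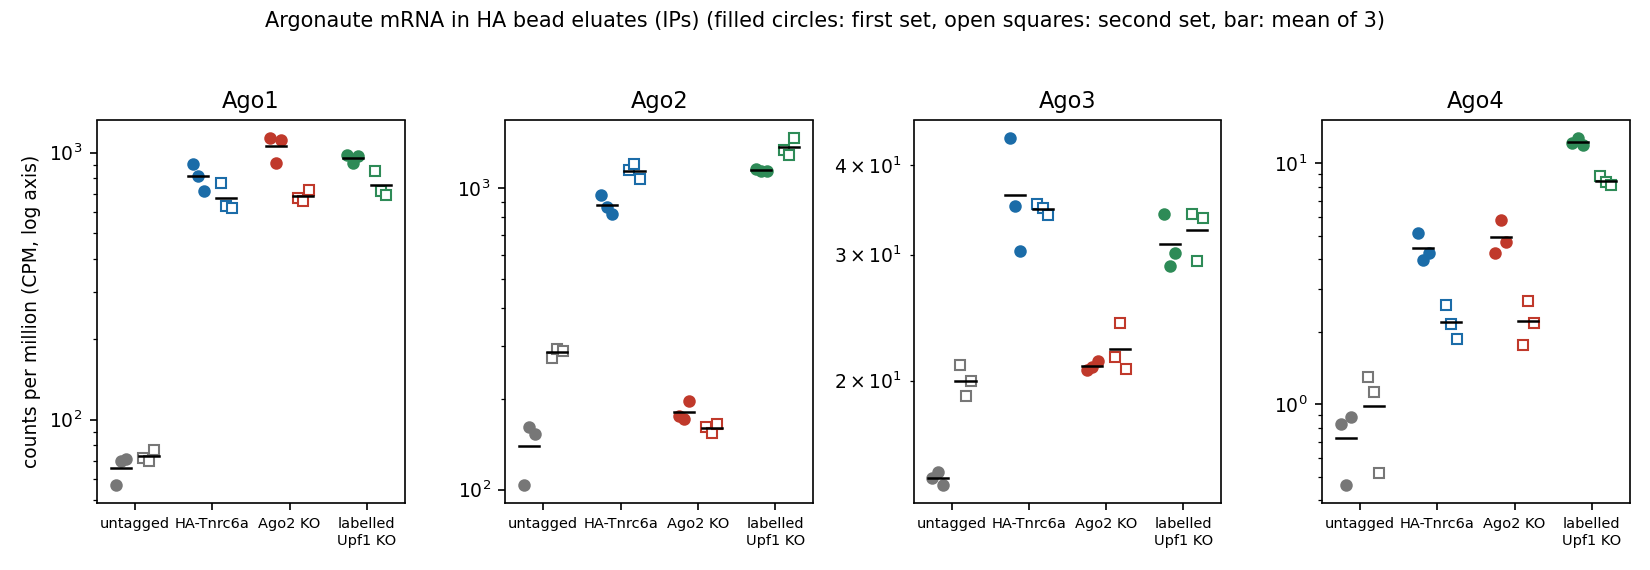
Level of each Argonaute mRNA in the HA bead eluates (IPs), in CPM on a log axis, by genotype. Each point is 1 library, filled circles are the first set, open squares the second, and the short bars are means of 3. Ago2 in Ago2 knockout IPs (154 to 197 CPM) lies among the untagged IPs (103 to 294 CPM), whereas Ago1 there (656 to 1135 CPM) overlaps the other tagged IPs over both sets.

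Enrichment was also called for all 4 genes in Ago2 knockout cells, compared with the same untagged cells. Ago1 was enriched by 3.18 ± 0.07 on the log2 scale (adjusted p = 1.45e-29), Ago4 by 2.80 ± 0.39 (adjusted p = 8.55e-08), Ago2 by 1.06 ± 0.11 (adjusted p = 1.7e-08) and Ago3 by 0.41 ± 0.11 (adjusted p = 0.00112). Here 64.7% of 19982 genes were called and 31.5% were higher. The Ago2 value rests on its low input: Ago2 stood at 175, 172 and 197 CPM in the first set and at 161, 154 and 166 CPM in the second, a range that overlapped the untagged IPs. On IPs without inputs the sign turned (−0.18, adjusted p = 0.0445). Ago3 was not past the threshold in the second set alone (0.17, adjusted p = 0.214).

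In cells labelled Upf1 knockout, Ago1 was enriched by 3.47 ± 0.07 (adjusted p = 1e-29), Ago4 by 3.41 ± 0.30 (adjusted p = 4.64e-12), Ago2 by 2.32 ± 0.12 (adjusted p = 1.1e-14) and Ago3 by 1.07 ± 0.11 (adjusted p = 1.46e-10), with 63.6% of 19910 genes called and 31.8% higher. Ago4 thus stood next to Ago1 in these cells, as it did in Ago2 knockout cells. In HA-Tnrc6a cells Ago4 stood below Ago2, by less than the sum of their standard errors. The order of the genes was not tested. The 3 enrichments share their untagged libraries and are given side by side for that reason.

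Recovery without Ago2 was next compared with HA-Tnrc6a cells, as the difference in the log2 ratio of IP to input. It was lower for 3 of the 4 Argonaute mRNAs, against 12.3% of 19995 genes called lower and 21.3% called in either direction. Among the 3 is Ago2 itself, counted from the reads left in its own knockout. The part of the gene removed is not given, so these reads may not stand for the same mRNA. Ago2 mRNA fell by 1.35 ± 0.07 (adjusted p = 1.19e-16). Its IP level dropped from 820 to 1203 CPM in HA-Tnrc6a cells to 154 to 197 CPM, a larger drop than in the input, and only 0.68% of genes had a lower value. Ago3 fell by 0.66 ± 0.10 (adjusted p = 8.5e-06). Its IP levels were 20.7, 20.9 and 21.3 CPM and 21.6, 24.1 and 20.8 CPM in the knockout, below the lowest HA-Tnrc6a IP at 30.3 CPM, while its inputs overlapped.

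Ago1 showed a smaller difference whose direction depends on the input. Ago1 recovery was lower by −0.29 ± 0.08 on the log2 scale (adjusted p = 0.00889). The IP level itself was not lower: knockout IPs held 1135, 917 and 1110.0 CPM in the first set and 678, 656 and 721 CPM in the second. In the first set all 3 lay above the 3 HA-Tnrc6a IPs (719 to 902 CPM), and in the second set the ranges overlapped. On IPs without inputs the sign turned, to 0.23 (adjusted p = 0.0172). The first set alone gave −0.13 (adjusted p = 0.612) and the second −0.46 (adjusted p = 0.000314), and the difference between the sets did not pass its own test (−0.37). For Ago4 the value was 0.76 ± 0.32 (adjusted p = 0.0859), with IP levels of 1.76 to 5.84 CPM against 1.87 to 5.13 CPM. It passed without number 1 (0.97, adjusted p = 0.0415) or number 6 (1.00, adjusted p = 0.0272) of the Ago2 knockout inputs, or without number 6 of the HA-Tnrc6a inputs (0.90, adjusted p = 0.0369). These 3 inputs are those that also decided the Ago4 call in lysates.

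The amount of the bait's own mRNA differed between these IPs. Tnrc6a mRNA stood at 41114 to 58807 CPM in Ago2 knockout IPs and 19271 to 34244 CPM in HA-Tnrc6a IPs of the first set, without overlap, and at 11211 to 15861 CPM and 8840 to 12657 CPM in the second set. Its part in the recovery values was not tested. The fall of Ago2 and Ago3 recovery was called in each set alone: −1.17 (adjusted p = 2.1e-07) and −1.54 (adjusted p = 1.42e-12) for Ago2, and −0.71 (adjusted p = 0.0117) and −0.61 (adjusted p = 0.000257) for Ago3.

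In cells labelled Upf1 knockout, Ago4 alone among the 4 changed in recovery relative to HA-Tnrc6a cells. Its log2 ratio of IP to input was higher by 1.37 ± 0.23 (2.58-fold, adjusted p = 0.000306). Ago4 reached 12.1, 12.7 and 11.9 CPM in IPs of the first set and 8.89, 8.38 and 8.15 CPM in the second, against 5.13, 3.96 and 4.22 CPM and 2.58, 2.14 and 1.87 CPM in HA-Tnrc6a IPs. All 6 were above all 6, on 173 to 247 counts against 45 to 66, while the inputs overlapped at 15 to 36 counts against 14 to 27. The value was 1.27 in the first set alone (adjusted p = 0.0613) and 1.41 in the second (adjusted p = 0.0359). Of 19966 genes, 73 (0.366%) had a higher value, and the comparison called 4.49% of genes, with 2.92% of those tested higher. Ago1 (−0.02 ± 0.08, adjusted p = 0.953), Ago2 (−0.09 ± 0.07, adjusted p = 0.561) and Ago3 (−0.01 ± 0.11, adjusted p = 0.982) did not pass.

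With one knockout set against the other, recovery in Ago2 knockout cells was lower for Ago2 (−1.24 ± 0.07, adjusted p = 2.48e-17), Ago3 (−0.63 ± 0.10, adjusted p = 4.78e-06) and Ago1 (−0.26 ± 0.07, adjusted p = 0.00489). Over all 19962 genes, 13.5% were called lower and 24.4% in either direction. Ago2 was again counted from the reads left in its own knockout. The Ago1 call was lost without number 1 of the Ago2 knockout inputs (adjusted p = 0.0528), without number 4 of the labelled Upf1 knockout IPs (adjusted p = 0.0557), in the first set alone (−0.03, adjusted p = 0.932) and on IPs without inputs (−0.02, adjusted p = 0.847). Ago4 differed by −0.60 ± 0.29 (adjusted p = 0.135), and by −1.65 on IPs without inputs (adjusted p = 5.62e-12), where all 6 Ago2 knockout IPs were below all 6 IPs of cells labelled Upf1 knockout.

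**Figure D4:**
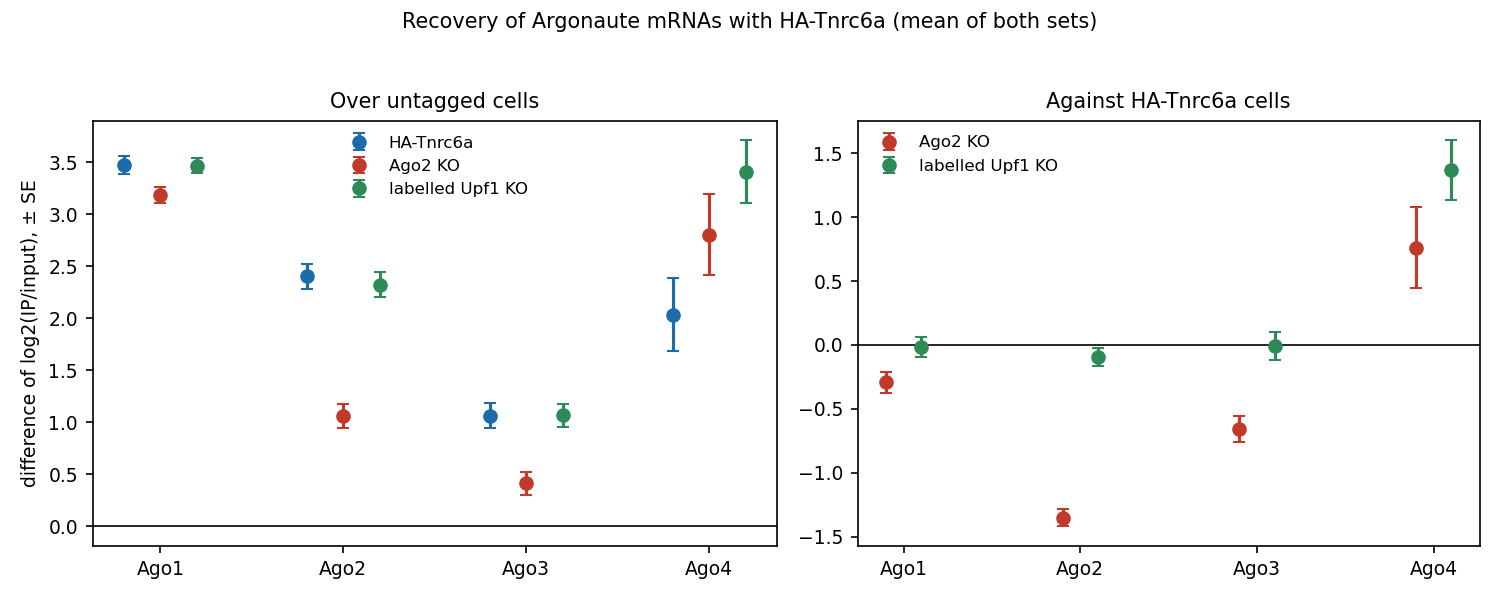
Difference in log2(IP/input) for each Argonaute mRNA, over untagged cells (left) and against HA-Tnrc6a cells (right). Points are the mean of both sets and bars the standard error. Ago2 and Ago3 lie lowest in Ago2 knockout cells (−1.35 and −0.66 against HA-Tnrc6a), and Ago4 lies highest in cells labelled Upf1 knockout (1.37).

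Ago1 was the most abundant Argonaute mRNA per length in the mean of tagged IPs. It made up 55.0% ± 6.26 of the Argonaute level in HA-Tnrc6a IPs and 88.1% ± 1.81 in Ago2 knockout IPs (mean ± SD, n = 6), where Ago2 held 10.4% ± 1.59. In HA-Tnrc6a IPs single libraries overlapped (Ago1 46.9% to 61.1%, Ago2 37.2% to 51.7%), and without division by length Ago2 came first there (56.2% against 41.6%), while Ago1 still led in Ago2 knockout IPs (81.1% against 16.4%). In IPs labelled Upf1 knockout Ago1 had 53.0% and Ago2 45.3% over both sets, but 47.96% and 50.4% in the second set, and without division by length Ago2 came first (58.3% against 39.7%). The summed level per kilobase in Ago2 knockout IPs was 145 ± 15.1 against 166 ± 16.4 in HA-Tnrc6a IPs in the first set, and 97.4 ± 4.41 against 167 ± 12.4 in the second (SD, n = 3 each). Only in the second set did every knockout IP lie below every HA-Tnrc6a IP.

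The genes that act on Argonautes were counted from lists of 62 genes in all. In Ago2 knockout lysates 21 of them were higher, 7 lower and 34 not called, with a median log2 fold change of 0.03 against −0.01 over all genes tested, of which 15.7% were higher and 15.2% lower. The 3 GW182 genes, whose proteins bind Argonautes, were all higher: Tnrc6a by 0.51 ± 0.03 (adjusted p = 1.65e-17), Tnrc6b by 0.34 ± 0.04 (adjusted p = 1.18e-08) and Tnrc6c by 0.21 ± 0.03 (adjusted p = 1.75e-06). Of the 8 genes of the Argonaute phosphorylation cycle 5 were higher, led by Ankrd52, which targets protein phosphatase 6 to Argonautes (0.77 ± 0.03, adjusted p = 3.98e-22), and by Ppp6c, the catalytic subunit of that phosphatase (0.39 ± 0.04, adjusted p = 2.49e-12). Among 9 genes of Argonaute turnover, Calcoco2, an autophagy receptor, was higher (1.15 ± 0.04, adjusted p = 4.69e-26) and 3 were lower. The lower genes included Zswim8, a substrate receptor of the ubiquitin ligase for target-directed microRNA decay (−0.19 ± 0.05, adjusted p = 0.00522). Trim71, an RNA-binding ligase, was another (−0.11 ± 0.03, adjusted p = 0.00124). Against the same HA-Tnrc6a inputs, Trim71 was also lower in untagged inputs (−0.10, edgeR adjusted p = 0.0327), where Ago2 was not deleted. In inputs labelled Upf1 knockout it was lower as well (−0.21, edgeR adjusted p = 3.26e-10).

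Of 13 partners and import factors 4 were higher, among them the helicase Mov10 (0.32 ± 0.03, adjusted p = 2.77e-12), and 1 lower. Of 11 chaperones that load Argonautes 3 were higher, by at most 0.20 (Dnaja2, adjusted p = 8.37e-08). Of 7 microRNA biogenesis genes 2 were higher, Drosha by 0.11 (adjusted p = 0.000985) and Dgcr8 by 0.10 (adjusted p = 0.0149), which form the nuclear microRNA processor. Of 8 tailing and decay genes 3 were higher and Snd1 lower (−0.23, adjusted p = 8.11e-09). Among 3 PIWI genes, germline relatives of the Argonautes, Piwil2 (−0.61 ± 0.05, adjusted p = 3.6e-13) and Piwil4 (−1.01 ± 0.10, adjusted p = 7.81e-11) were lower. Germ cell markers (3 of 3 in the table) summed to 51.6 to 86.5 CPM there against 90.7 to 97.5 CPM in HA-Tnrc6a inputs, and their part was not tested. Untagged inputs, with Ago2 not deleted, had 65.6 to 76.9 CPM of them.

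In lysates labelled Upf1 knockout the same lists had 15 genes higher, 27 lower and 20 not called (median −0.04 against −0.02). Of the 11 chaperones 9 were lower and 0 higher, from Ahsa1, a co-chaperone of Hsp90 (−0.14, adjusted p = 1.77e-06), to Ptges3, another Hsp90 partner (−0.34, adjusted p = 2.44e-18). Of the turnover genes 4 were higher and 4 lower, with Sqstm1, an autophagy receptor, at 0.79 ± 0.03 (adjusted p = 2.27e-28). Piwil2 (−1.12) and Piwil4 (−1.83) were lower here too. Both were also lower in untagged than in the same HA-Tnrc6a inputs (Piwil2 −0.28, adjusted p = 0.000686, and Piwil4 −0.59, adjusted p = 4.08e-05), so HA-Tnrc6a cells had more of both mRNAs than each of the other genotypes. In inputs labelled Upf1 knockout the summed level of neuroectoderm markers was 49.8 to 65.8 CPM and that of germ cell markers 41.4 to 61.8 CPM, both below HA-Tnrc6a without overlap, and their part was not tested. Germ cell markers were below HA-Tnrc6a without overlap in untagged inputs too, at 65.6 to 76.9 CPM. The counts over the 62 genes compare with 29.5% of all genes higher and 29% lower.

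**Figure D5:**
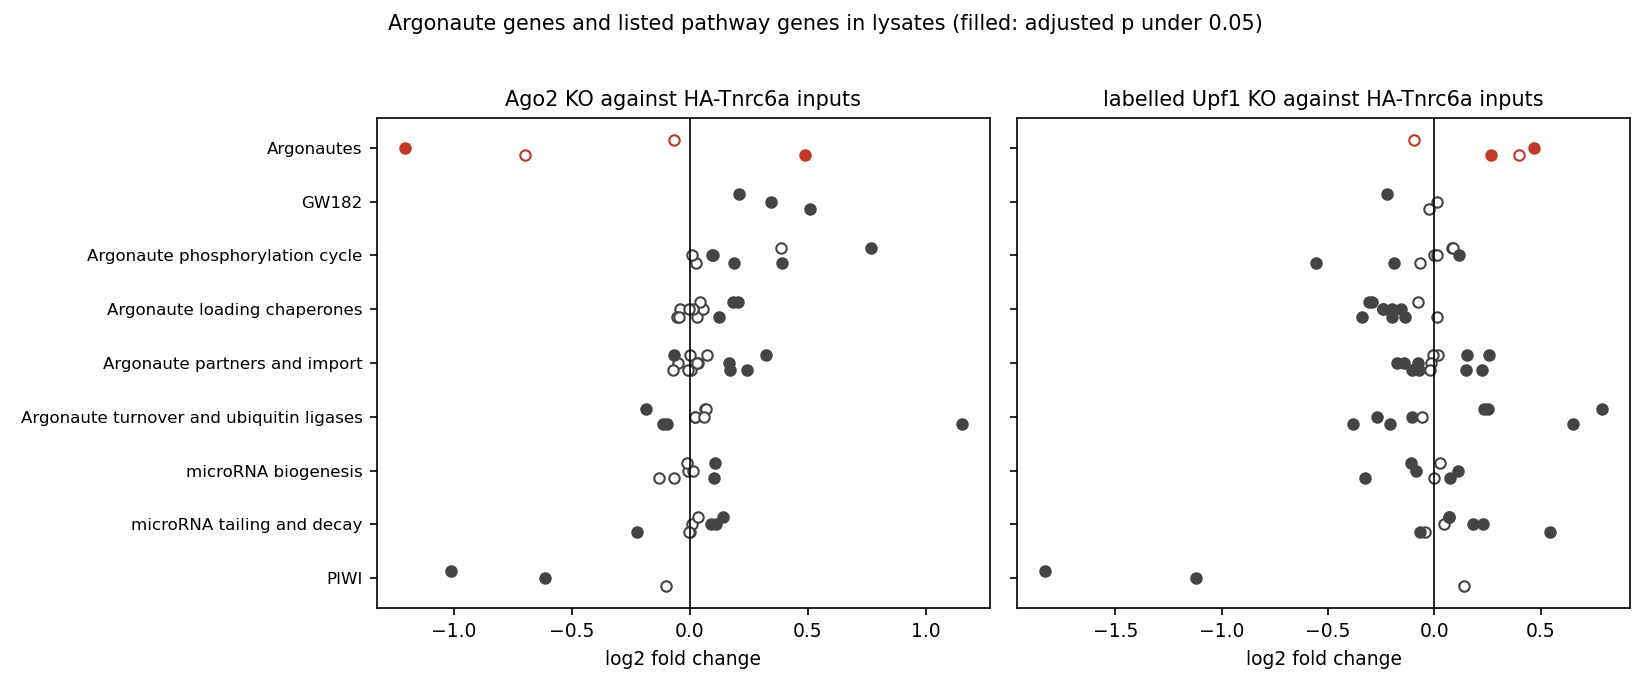
Log2 fold change in lysates of the 4 Argonaute genes (red) and the 62 listed genes (grey), by list, for Ago2 knockout (left) and labelled Upf1 knockout cells (right) against HA-Tnrc6a cells. Each point is 1 gene, filled where the adjusted p was under 0.05, and the vertical offset only separates points. The 3 GW182 genes lie to the right of 0 in the left panel, and 9 of 11 chaperones are filled and to the left of 0 in the right panel.

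In IPs, 32 of the 62 listed genes were enriched and 23 depleted with HA-Tnrc6a (median 0.21 against −0.10 over all genes), where 29.8% of all genes were higher and 32.2% lower. Ankrd52 had the largest value outside the tagged gene Tnrc6a, at 4.27 ± 0.11 (adjusted p = 2.25e-25), above that of Ago1. Tnrc6b followed at 2.44 ± 0.11, near Ago2, then Limd1, a scaffold that bridges Argonautes and Tnrc6 (2.30 ± 0.11), and Trim71 (2.17 ± 0.09). Of the chaperones 8 of 11 were depleted. In Ago2 knockout cells the recovery of 13 listed genes was lower and that of 6 higher (median −0.07 against −0.04), with 12.3% of all genes lower and 9.09% higher. Ankrd52 fell most, by 1.16 ± 0.09 (adjusted p = 1.47e-12), and Wtip, a LIM protein related to Limd1, rose most, by 0.46 ± 0.07 (adjusted p = 3.47e-06). None of the 3 GW182 genes passed (Tnrc6b −0.18 ± 0.08, adjusted p = 0.0914). In cells labelled Upf1 knockout 7 listed genes were higher, by 0.21 to 0.27, and 0 lower, with 2.92% of all genes higher and 1.57% lower.

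The results of the 2 sets were compared for each gene and comparison except the bead background, 40 differences in all, and 3 passed the threshold. Taken as the second set less the first, Ago2 in Ago2 knockout against labelled Upf1 knockout lysates differed by −0.28 (adjusted p = 0.000464), where 13.1% of all genes differed. Enrichment in Ago2 knockout over untagged cells differed by −0.77 for Ago1 (adjusted p = 0.000825) and by −0.85 for Ago2 (adjusted p = 0.0278), where 6.15% of all genes differed. For the other lysate comparisons 0 Argonaute genes were called by edgeR and 5.94% (Ago2 knockout), 11.6% (labelled Upf1 knockout) and 3.4% (untagged) of all genes. For enrichment in HA-Tnrc6a and labelled Upf1 knockout cells the shares were 0.365% and 1.68%. For recovery they were 0.195% (Ago2 knockout against HA-Tnrc6a), 0.115% (labelled Upf1 knockout against HA-Tnrc6a) and 0.125% (between the knockouts).

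Across the 16 means of genotype, fraction and set, the log2 CPM of Ago1 was most like that of Lonrf1, Pik3cb and Prdm4 among 10840 genes with an average log2 CPM of at least 3 (Pearson's r of 0.997 for each). Ago2 was most like Nudt4 (0.938), Cacfd1 (0.922) and Sidt2 (0.920). Ago3 was closest to Dnajb14 (0.986), Smad5 (0.976) and Atp13a3 (0.972), and Ago4 to Ogfod2 (0.979), Acbd4 (0.977) and Gga3 (0.974). Between Argonautes r ran from 0.554 (Ago1 and Ago2) to 0.891 (Ago1 and Ago4). The 16 points share libraries and the contrast between inputs and IPs, which alone raises r, so these values are descriptions.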

How the data were processed

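RNA was measured in 48 libraries of 4 genotypes, made with a stranded total RNA kit per the labels' protocols. Base calling with bcl2fastq 2.20 and alignment with STAR 2.7.3a are named in the submitters' processing notes, as are GRCm38 and mm10. The authors deposited raw counts per gene for 20171 genes, with no normalization, and a gene length in bases per the file headers. The counting tool and its strand setting are not given in the sources used here. Another 48 columns of the authors' scaled values were not used, since columns could be tied to groups only. Numbers 1 to 3 and 4 to 6 were treated as 2 sets because library totals separated them without overlap.

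Tests on the counts were run in R 4.3.3 with edgeR 4.0.16 and limma 3.58.1, using TMM scaling, filterByExpr with a minimum count of 10, 1 coefficient per group and set, robust quasi-likelihood fit, two-sided F-test on contrasts averaged over both sets, and Benjamini-Hochberg adjustment over all genes tested, with a threshold of 0.05. Only the groups compared entered a fit. P-values measure the spread between dishes. Figures and summaries used Python 3.11.15. The script was tested on simulated data. Replicate pairs differed by more than counting noise (chi-square per degree of freedom of 1.96 to 36.2). Same-numbered input and IP libraries of 1 genotype and set correlated by 0.104 on average and exceeded 0.1 in 10 of 24 pairs. Those with different numbers correlated by −0.0491 on average and exceeded 0.1 in 2 of 48 pairs. Libraries of the same number thus shared some variation, which the main fits did not use. Blocks by number and by lysate were run as alternatives. Members and gene lists were chosen with earlier results of these data known, and named genes come from the members, the label checks, these lists and the 3 genes most like each member. Alternatives were RLE size factors, library totals, no count filter, a minimum count of 50, DESeq2 1.42.0, all 48 libraries in 1 fit, each set alone, IPs without inputs, blocks and leaving out each library.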

Additional observations from a re-analysis of the deposited data

Results flagged for a closer look

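In 32 groups of 6 libraries, 3 single library values of the Argonaute genes stood apart from the rest of their group. If the 6 libraries of a group were alike, chance alone would give about 1 in 20 groups. Each group pools both sets, whose levels can differ, so that rate is only a rough guide. Ago1 had its lowest value among untagged IPs in number 1, at a log2 CPM of 5.83. Ago3 had its highest value among Ago2 knockout IPs in number 5, at 4.59. Ago4 had its lowest value among HA-Tnrc6a inputs in number 6, at −1.16, on 14 counts.

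Of 40 differences between the sets that were tested, 3 passed the threshold, each given as the second set less the first. Ago2 in Ago2 knockout against labelled Upf1 knockout lysates differed by −0.28 (edgeR, adjusted p = 0.000464), with 13.1% of all genes called. The enrichment in Ago2 knockout over untagged cells differed by −0.77 for Ago1 (adjusted p = 0.000825) and by −0.85 for Ago2 (adjusted p = 0.0278), with 6.15% of all genes called. Enrichment was thus smaller in the second set, where Tnrc6a mRNA in the knockout IPs stood at 11211 to 15861 CPM against 41114 to 58807 CPM in the first. Tnrc6a mRNA was also lower in the second set in HA-Tnrc6a IPs (8840 to 12657 against 19271 to 34244 CPM). The same held for labelled Upf1 knockout IPs (7686 to 13792 against 19552 to 23625 CPM). Enrichment differences of Ago1 and Ago2 were negative there too, without passing: −0.39 and −0.43 in HA-Tnrc6a, −0.49 and −0.73 in labelled Upf1 knockout cells. The part of the Tnrc6a mRNA level was not tested.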

How the results depend on the processing

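Counts of called Argonaute genes moved in the settings listed here and in some given with the results above. In the first set alone, Ago1 recovery without Ago2 was not called against either genotype, nor was Ago4 between the knockout lysates. Ago3 enrichment in Ago2 knockout cells was not called in the second set alone. Leaving out single libraries brought Ago4 past the threshold in Ago2 knockout against HA-Tnrc6a lysates. For untagged against HA-Tnrc6a inputs the count was 0, and 1 in the second set alone, and it lay between 0 and 1 when single libraries were left out. The bead background called 3 genes and 0 in the first set alone. Recovery in the labelled Upf1 knockout called 1, and 0 in the first set alone and 3 on IPs without inputs. With the number as a replicate block, 1 gene rather than 0 differed between the sets in Ago2 knockout against HA-Tnrc6a lysates and 1 rather than 0 in the enrichment of the labelled Upf1 knockout, the latter also with library totals (1). The block changed no other count of called members, and 18 of 24 IPs correlated best with the input of their own number. Without division by gene length, the Ago1 share was 46.6% in Ago2 knockout and 22.4% in HA-Tnrc6a inputs, the Ago2 share 47.8% and 73.5%, the Ago3 share 5.46% and 3.83%, and the Ago4 share 0.220% in HA-Tnrc6a inputs. Ago2 then held slightly more than Ago1 in the knockout.

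Signs turned mostly for values near 0, but on IPs without inputs called values turned as well. In Ago2 knockout cells Ago1 recovery went from −0.29 to 0.23 and Ago2 enrichment from 1.06 to −0.18, with both signs called. IPs alone include differences in the lysate level, so they measure another quantity. Values near 0 that turned there were Ago1 recovery (0.21, edgeR adjusted p = 0.0279) and Ago2 recovery (0.34, adjusted p = 0.000524) in labelled Upf1 knockout cells, both called on IPs alone. In untagged against HA-Tnrc6a inputs they were Ago2 in the first set alone (−0.029) and Ago3 with RLE factors (0.0026), DESeq2 (0.0013) or the second set alone (0.020), the latter gene with a range of −0.080 to 0.053 over left-out libraries, and Ago4 with −0.032 to 0.25. Between the 2 knockout lysates Ago3 gave −0.026 with library totals, and its difference between sets 0.0054 with RLE factors and 0.061 with library totals. In the bead background Ago4 gave −0.11 with library totals, −0.36 in the first set alone and −0.068 to 0.23 over left-out libraries. For recovery in the labelled Upf1 knockout Ago3 gave 0.036 in the second set alone and −0.094 to 0.043 over left-out libraries, and Ago1 −0.12 to 0.0026. The cause was not tested.

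Over all genes, the first set alone called 3382 rather than 6065 genes between Ago2 knockout and HA-Tnrc6a lysates, and all 48 libraries in 1 fit called 3902. Recovery without Ago2 called 1623 rather than 4267 in the first set and 7482 on IPs without inputs. Against the labelled Upf1 knockout it called 2667 and 10794 rather than 4878. Recovery in the labelled Upf1 knockout called 162 and 384 in the sets alone, 8805 on IPs and 591 to 596 without one of HA-Tnrc6a inputs 2, 3, 5 or 6, rather than 896. Its split was 583 higher and 313 lower, 352 and 315 with RLE factors, and 224 and 778 with library totals. Library totals also turned 6338 higher and 6326 lower into 4975 and 8694 for enrichment in the labelled Upf1 knockout, and 2174 and 2704 into 3244 and 1870 for recovery between the knockouts. They moved the median of all genes in the enrichments from −0.10 to −0.25 (HA-Tnrc6a), −0.07 to −0.22 (Ago2 knockout) and −0.06 to −0.32 (labelled Upf1 knockout). In the bead background the first set alone called 1972 rather than 6892, and library totals turned a split of 3465 higher and 3427 lower into 1997 and 7559. Untagged against HA-Tnrc6a inputs gave 652 in the first set and 1937 with all 48 libraries, rather than 2990. A fit on the authors' scaled columns was not run. Ago4, with as few as 6 counts in an input, is limited by depth.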
